A study of Homo sapiens with 12 samples.

Results

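A catalytically dead p300 fusion, dCas9-p300 D1399Y, was compared with dCas9 alone in HEK293T cells, a human embryonic kidney line. The comparison took 6 of the 12 libraries of the series, chosen by the transfected protein named in the labels, with 3 libraries per protein. The D1399Y group (replicates 1 to 3) received a plasmid for dCas9 joined to the p300 catalytic core with the D1399Y change, which abolishes acetyltransferase activity, and the dCas9 group (replicates 1 to 3) received a plasmid for dCas9 with no fused domain. Both groups, and the dCas9-p300 core and dCas9-VP64 groups that completed the series, also received guide RNAs for 4 sites at IL1RN. Plasmids were delivered by lipid transfection, so each library mixed transfected and untransfected cells, and the labels state only that transfections were done in triplicate. The p-values below therefore measure the spread between these libraries, which may be technical. The comparison asks which RNAs differ when the p300 core is brought along by dCas9 without its enzymatic activity.

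p300, the product of EP300, is a transcriptional coactivator that acetylates lysines of histones and other proteins, with CREBBP as its close paralog. Its catalytic core holds the acetyltransferase domain beside a bromodomain, which binds acetylated lysine. dCas9 binds the DNA its guide RNA matches without cutting it, and carries a fused domain there. The product of IL1RN is a secreted antagonist that occupies the receptor of interleukin 1 without signalling.

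IL1RN lies on chromosome 2, and its first annotated transcription start in GENCODE is at chr2:113117893 on the plus strand of GRCh38. Another annotated start, that of transcript NM_173842, is at chr2:113127561. The stretch of 172 bases that ends 1 base before the first start (chr2:113117721-113117892, GRCh38.p14, sequence from RefSeq) is shown as a promoter region of IL1RN. All guide sets addressed this gene. The sequences and positions of the guides are not used here, so whether any guide site lies in this stretch is not shown.

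IL1RN promoter: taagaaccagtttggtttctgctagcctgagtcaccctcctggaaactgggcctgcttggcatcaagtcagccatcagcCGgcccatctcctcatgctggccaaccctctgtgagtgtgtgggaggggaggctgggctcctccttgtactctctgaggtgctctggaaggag

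The capitals mark the CpG dinucleotide, of which this window holds 1. The same stretch of the 35116 promoter entries in the table held a median of 6, and 22.8% of them held no more than 1. Its GC content is 58.1%, against a median of 57.0% over the same entries.

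Total counts were 3736035, 3700113 and 3762962 in D1399Y replicates 1 to 3, against 3633590, 4228316 and 2442960 in dCas9 replicates 1 to 3. The shallowest library, dCas9 replicate 3, also stood apart in its profile. Over the 14613 genes tested, log2 levels correlated at 0.883 to 0.933 in the pairs that included it and at 0.963 to 0.990 in all other pairs among the 12 libraries. The median SD of log2 level over genes was 0.20 among the D1399Y libraries and 0.34 among the dCas9 libraries, or 0.15 between dCas9 replicates 1 and 2 alone. Of the 102 genes named below beside EP300 and IL1RN, 50 had a log2 fold change that moved by over 1.5 times without this library. Of these, 44 moved to a smaller value of the same sign. The value without it is given for EP300, IL1RN, every list median printed and some of the genes it moves. A gene printed without that value can also have moved. Each of the 16 HEK293T markers had counts in at least 1 of these 6 libraries, PAX8 only in dCas9 replicate 3, with 2 counts. The summed level of the markers, not scaled by TMM, was 973 to 1129 CPM with D1399Y and 982 to 1251 CPM with dCas9.

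EP300 had the smallest unadjusted p of all genes tested and the largest log2 fold change in favour of D1399Y. Its level in CPM (counts scaled to a common library size) was 450, 386 and 456 in the D1399Y libraries, against 124, 146 and 51.9 in the dCas9 libraries. Every D1399Y library lay above every dCas9 library, and dCas9 replicate 3 held the lowest level. The mean was 431 ± 38.9 CPM with D1399Y and 107 ± 49.2 CPM with dCas9 (SD, n = 3 each), from 1658, 1335 and 1714 counts with D1399Y and 439, 609 and 140 counts with dCas9. The log2 fold change was 2.0 ± 0.27 (SE), or 3.99-fold (95% interval 2.67 to 5.95), and its adjusted p of 0.0515 in edgeR's quasi-likelihood test with Benjamini-Hochberg adjustment missed the threshold of 0.05. Without dCas9 replicate 3 the log2 fold change was 1.67 ± 0.14, or 3.19-fold, and the gene passed with an edgeR adjusted p of 1.96e-05. The p300 core is part of the transfected plasmid, and its reads and those of the cell's own EP300 were counted in 1 transcript row, so plasmid and chromosomal RNA cannot be told apart. Nor, in these bulk libraries, can more RNA per cell and more cells with the RNA.

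The proteins with and without a p300 core fell on either side. EP300 stood at 389, 339 and 449 CPM in the dCas9-p300 core libraries and at 132, 139 and 122 CPM in the dCas9-VP64 libraries. D1399Y differed from the core group by a log2 fold change of 0.14 ± 0.26 (95% interval -0.41 to 0.69, edgeR adjusted p 1.00), and from the VP64 group by 1.71 ± 0.27 (1.14 to 2.28, edgeR adjusted p 0.119). The ranges of D1399Y and core overlapped, and those of D1399Y and VP64 did not. The EP300 reading thus followed the labels in all 12 libraries: the lowest of the 6 p300 libraries was above the highest of the other 6.

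**Figure D1:**
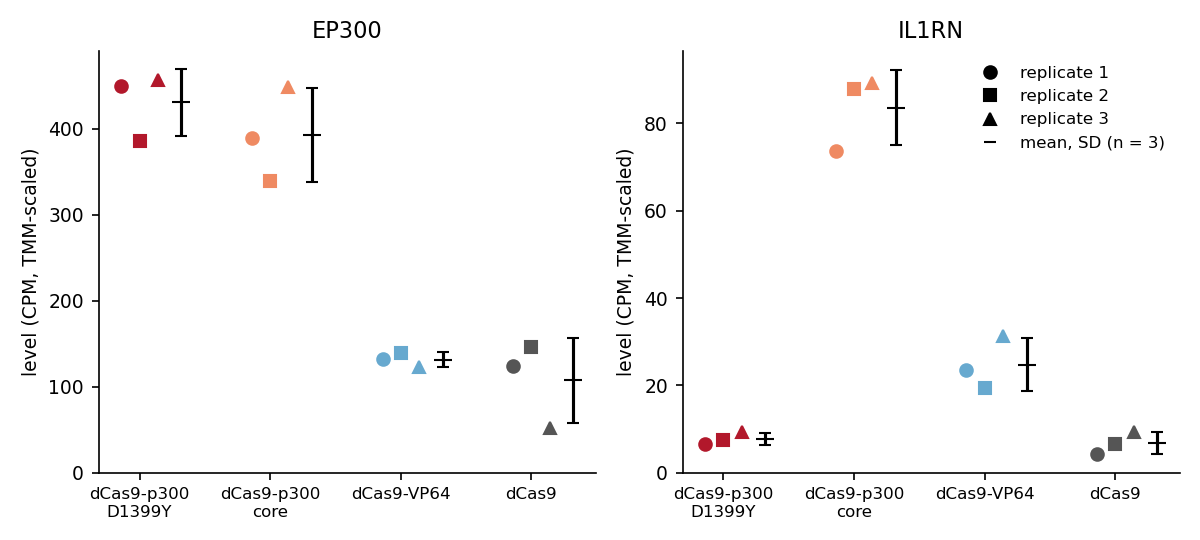
Level of EP300 (left) and IL1RN (right) in CPM for each library of the 4 groups, with replicate 1 as circles, 2 as squares and 3 as triangles, and the mean with its SD beside them. For EP300 the D1399Y libraries sit at 386 to 456 CPM among the core libraries, and for IL1RN at 6.51 to 9.32 CPM among the dCas9 libraries.

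IL1RN, the gene with the guide sites, had 6.51, 7.52 and 9.32 CPM in the D1399Y libraries, against 4.25, 6.70 and 9.26 CPM in the dCas9 libraries. The ranges overlapped. These levels rest on 24, 26 and 35 counts with D1399Y and 15, 28 and 25 counts with dCas9, and averaged 7.78 ± 1.42 CPM with D1399Y and 6.74 ± 2.51 CPM with dCas9 (SD, n = 3 each). The log2 fold change of 0.24 ± 0.30 (1.18-fold, 95% interval 0.757 to 1.84, edgeR adjusted p 0.732) leaves room for a rise of up to 1.84-fold and for a decrease. It was 0.49 without dCas9 replicate 3 and -0.02 without dCas9 replicate 1, so 1 library decides its sign.

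The other fusions gave higher IL1RN levels at the same guide sites. The gene stood at 73.6, 87.9 and 89.2 CPM with the active p300 core and at 23.6, 19.3 and 31.3 CPM with VP64. All 3 D1399Y libraries were below all of these. IL1RN was 10.7-fold lower with D1399Y than with the core (95% interval 7.38 to 15.5), a log2 fold change of -3.42 ± 0.25 with an edgeR adjusted p of 2.96e-05. It was the 1 gene of 14613 past the threshold in that comparison (0.00684% lower, none higher in the edgeR test). Against VP64 the log2 fold change was -1.66 ± 0.26 (3.17-fold lower, 95% interval 2.16 to 4.64), with an edgeR adjusted p of 0.119. Neither EP300 nor IL1RN passed there, nor did any other gene.

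The genes around IL1RN on chromosome 2 showed no difference past the threshold. Of 17 neighbours in the files, 8 had enough counts to be tested, 4 with a log2 fold change above 0 (50.2% of all genes tested were), and the median was 0.02. That median was 0.00 without dCas9 replicate 3, -0.16 with offsets for transcript length and GC content, and 0.33 without dCas9 replicate 2. TTL, a tubulin tyrosine ligase, had 179, 184 and 171 CPM with D1399Y against 158, 177 and 136 CPM with dCas9 (0.18 ± 0.12, and -0.28 with the offsets). POLR1B, the second-largest subunit of RNA polymerase I, had 150, 195 and 162 CPM with D1399Y against 159, 165 and 101 CPM with dCas9 (0.25 ± 0.17, and 0.06 without dCas9 replicate 3). Both ranges overlapped between the groups, and in both genes dCas9 replicate 3 was the lowest library. SLC20A1, a phosphate transporter, had 203, 191 and 183 CPM with D1399Y and 216, 195 and 180 CPM with dCas9, a log2 fold change of -0.04 ± 0.12. The mitotic spindle gene CKAP2L gave 0.27 ± 0.23 (-0.01 without dCas9 replicate 3) and the mitochondrial gene CHCHD5 -0.42 ± 0.26. ZNG1B gave -0.21 ± 0.19, RABL2A 0.08 ± 0.35 and PSD4, an exchange factor for ARF6, -0.07 ± 0.47. The remaining members of the interleukin 1 cluster, and the neighbouring gene PAX8, were at or near 0. IL1B, IL37, IL36A, IL36B, IL36G, IL36RN and IL1F10 had 0 counts in all 6 libraries, which allows up to 3 counts in each by counting error alone, IL1A had 1 count in D1399Y replicate 2, and PAX8 had 2 counts in dCas9 replicate 3. Among genes addressed elsewhere in the study of this protein but without guides here, MYOD1 had 20 counts over the D1399Y libraries and 11 over the dCas9 libraries, and POU5F1 a log2 fold change of -0.25 ± 0.28 (0.05 without dCas9 replicate 3).

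Across all 14613 genes tested, none was called higher and none lower with D1399Y (0% in each direction, edgeR adjusted p under 0.05). DESeq2 and limma-voom each called 1 gene, EP300. An unadjusted p under 0.05 was reached by 861 genes (5.89%), of which 421 (2.88%) were higher and 440 (3.01%) lower with D1399Y, where 731 would be reached on average with no differences. With the replicate number as a block, which calls no gene at the adjusted threshold either, 1569 genes (10.7%) reached it. The scaling centres the fold changes, and 7332 genes (50.2%) lay above 0.

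The intervals show what sizes of change the libraries leave room for. For 11428 genes (78.2%) the 95% interval of the fold change lay within 2-fold either way. That share was 29.2% of genes with a mean count under 20, 72.4% from 20 to 100, 91.9% from 100 to 500 and 92.2% of genes with 500 or more. Only 33 genes were estimated at more than 2-fold higher and 39 at more than 2-fold lower, with a median mean count of 9.92, against 141 for all genes tested. EP300 was the 1 gene whose whole interval lay beyond 2-fold.

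**Figure D2:**
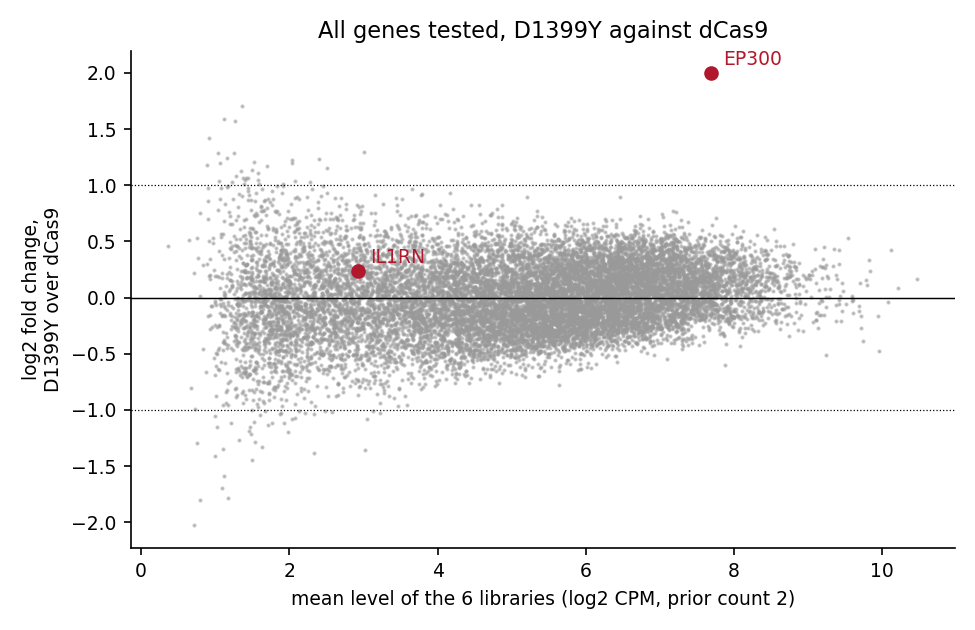
Log2 fold change of D1399Y over dCas9 (vertical axis, dotted lines at 2-fold either way) against mean log2 CPM of the 6 libraries, 1 point per tested gene (14613). EP300 lies alone at 2.0 among genes of high level, IL1RN lies at 0.24 inside the cloud, and the cloud widens toward low levels.

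Leaving out dCas9 replicate 3 changed this picture in 2 ways. EP300 passed (1 gene higher of 14764, 0.00677%, and none lower), and the number of genes with an unadjusted p under 0.05 was 373 (2.53%), with 195 (1.32%) higher and 178 (1.21%) lower. The 2 sets shared 220 genes, which is 25.6% of the larger and 59.0% of the smaller. The count also depended on other single libraries: it was 203 when D1399Y replicate 2 was left out, and 1403 or 3068 when dCas9 replicate 1 or 2 was. It depended on the spread shared with the core and VP64 libraries as well. A fit of the D1399Y and dCas9 groups alone gave 196 of 14094 genes. In none of these fits did a gene other than EP300 pass the adjusted threshold. EP300 was also the 1 gene called in fits with offsets for transcript length and GC content (0.00684%) and without both D1399Y replicate 2 and dCas9 replicate 3 (0.00678%).

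Fold changes followed the base composition of the transcripts. Length and GC content here are those of the longest GENCODE v29 transcript of each gene, which can differ from the transcripts that were counted. Over 13982 genes with a known sequence, the log2 fold change correlated with GC content at -0.53 and with log length at 0.47. This is a description across genes that share the same 6 libraries. In 5 bins of rising GC content the median log2 fold change was 0.25, 0.13, 0.02, -0.13 and -0.23. Without dCas9 replicate 3 the 5 medians were 0.10, 0.04, -0.01, -0.05 and -0.06, and without D1399Y replicate 2 as well they were -0.01, -0.01, -0.01, 0.00 and 0.04. The correlation with GC content was then -0.24 and 0.07. Of the 6 libraries, D1399Y replicate 2 deviated most with GC content (correlation -0.62 with its deviation from the mean of all 12), and dCas9 replicate 3 followed at 0.49, with -0.55 for log length. The part of these features in single fold changes was not tested, and with the offsets 60 of the 102 named genes moved by over 1.5 times, 55 of them to a smaller value of the same sign. Values with the offsets are given below for every list median printed and for some genes only. A gene printed without one can also move, as SIRT6 did from -0.47 to -0.08 and JUNB from -0.50 to -0.14.

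**Figure D3:**
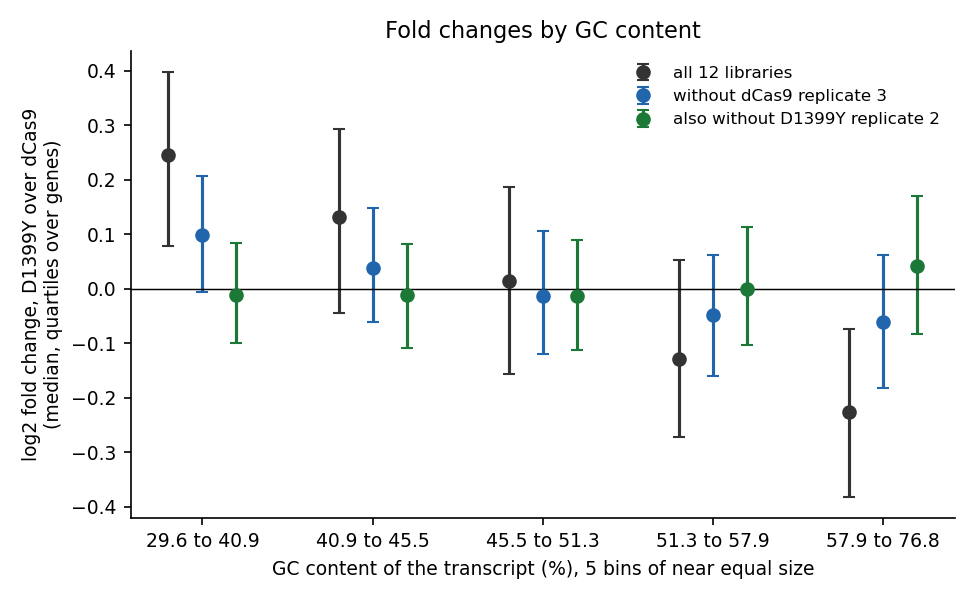
Median log2 fold change of D1399Y over dCas9, with quartiles over genes as bars, in 5 bins of transcript GC content (percent), from all 12 libraries (black), without dCas9 replicate 3 (blue) and also without D1399Y replicate 2 (green). The medians run from 0.25 down to -0.23 with all libraries and stay between -0.01 and 0.04 without both.

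Below EP300, the 11 genes of smallest unadjusted p among those higher with D1399Y all had an edgeR adjusted p of 0.633, and none passed. NIPBL-DT, a noncoding RNA transcribed divergently from the cohesin loader gene NIPBL, had 37.7, 44.5 and 38.6 CPM with D1399Y against 25.5, 26.5 and 25.6 CPM with dCas9 (0.64 ± 0.14). Its dCas9 values lay within about 1 CPM of each other, dCas9 replicate 3 included, and it gave 0.63 without that library and 0.36 with the offsets. LBR, which anchors the lamina at the inner nuclear membrane and has sterol reductase activity, had 323, 417 and 300 CPM with D1399Y against 236, 275 and 176 CPM with dCas9 (0.60 ± 0.16). GPCPD1, a glycerophosphocholine phosphodiesterase, had 54.6, 84.4 and 70.0 CPM with D1399Y against 49.0, 45.7 and 38.9 CPM with dCas9 (0.64 ± 0.17). In both genes D1399Y replicate 2 was the highest library and dCas9 replicate 3 the lowest, and the offsets gave 0.37 for LBR and 0.25 for GPCPD1. SIDT1, a multipass membrane protein, had 3.53, 2.60 and 3.46 CPM with D1399Y against 0.850, 1.20 and 1.11 CPM with dCas9 (1.57 ± 0.43), and ZNF879, a zinc finger gene, 5.70, 9.25 and 7.45 CPM with D1399Y against 1.98, 4.07 and 3.33 CPM with dCas9 (1.23 ± 0.32). These 2 low-level genes gave 1.6 and 1.26 without dCas9 replicate 3. The sodium-proton exchanger SLC9A2 gave 1.20 ± 0.35, RAD9B, a paralog of a checkpoint clamp subunit, 1.17 ± 0.33, MOSMO, an attenuator of hedgehog signalling, 0.66 ± 0.18, and PURB, a single-stranded nucleic acid binding protein, 0.61 ± 0.18. With the offsets PURB gave 0.21 and MOSMO 0.40. The list is completed by transcripts NM_001270493 (1.29 ± 0.33) and NM_183245 (0.88 ± 0.27), to which no gene name was matched.

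On the lower side the 12 genes of smallest unadjusted p also had an edgeR adjusted p of 0.633 and none passed. TJP3, which encodes the tight junction protein ZO-3, had 2.99, 2.89 and 2.4 CPM with D1399Y against 7.65, 7.65 and 6.30 CPM with dCas9 (-1.39 ± 0.39). It gave -1.46 without dCas9 replicate 3 and -1.21 with the offsets. LYZ, lysozyme, had 1.90, 2.89 and 1.86 CPM with D1399Y against 4.25, 4.78 and 5.56 CPM with dCas9 (-1.12 ± 0.30). SLC44A4, a choline transporter-like protein, had 3.26, 3.18 and 3.19 CPM with D1399Y against 6.23, 5.50 and 7.41 CPM with dCas9 (-0.97 ± 0.25). HAUS8, a subunit of the augmin complex of the mitotic spindle, had 14.9, 15.3 and 18.4 CPM with D1399Y against 24.7, 23.0 and 35.6 CPM with dCas9 (-0.76 ± 0.20), with the highest value in dCas9 replicate 3. ZNF576, a zinc finger gene, had 15.7, 17.6 and 19.4 CPM with D1399Y against 26.9, 26.3 and 28.2 CPM with dCas9 (-0.62 ± 0.16), and was nearly level within each group. CHMP1A of the ESCRT-III membrane scission machinery gave -0.57 ± 0.15, with -0.37 without dCas9 replicate 3 and -0.28 with the offsets. The sugar cotransporter SLC5A10 gave -1.59 ± 0.43, from only 3, 3 and 4 counts with D1399Y and 13, 7 and 9 with dCas9. ADAMTS13, the protease of von Willebrand factor, gave -0.88 ± 0.25. LINC01551 gave -0.77 ± 0.22, PSMC3IP, a cofactor of meiotic recombination, -0.64 ± 0.18, and THAP3 -0.54 ± 0.15 (-0.27 with the offsets). The readthrough transcript RAB4B-EGLN2 gave -0.68 ± 0.19 and is uncertain, since its reads can be those of RAB4B or EGLN2.

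All 24 of these genes had libraries that did not overlap between the groups, which the choice by p favours. Over all genes tested, 503 (3.44%) had all D1399Y libraries above all dCas9 libraries and 558 (3.82%) had them below. The sets differed in composition: the 12 genes on the higher side had a median GC content of 40.4% over the 10 with a known sequence, and the 12 on the lower side 56.9%, against 48.1% for all genes. The active core, compared with the same dCas9 libraries, gave its own values for these genes: 1.5 for SIDT1, 0.38 for NIPBL-DT and 0.22 for LBR, and -0.13 for TJP3, -0.44 for LYZ and -0.47 for SLC44A4 on the log2 scale. Compared with the same libraries, VP64 gave 1.23 for SIDT1, 0.55 for NIPBL-DT and 0.45 for LBR. It gave -1.10 for TJP3, -0.35 for LYZ and -0.45 for SLC44A4. A difference from dCas9 in these genes was thus not particular to D1399Y. Because the dCas9 libraries enter each of these comparisons, the values are set side by side only.

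**Figure D4:**
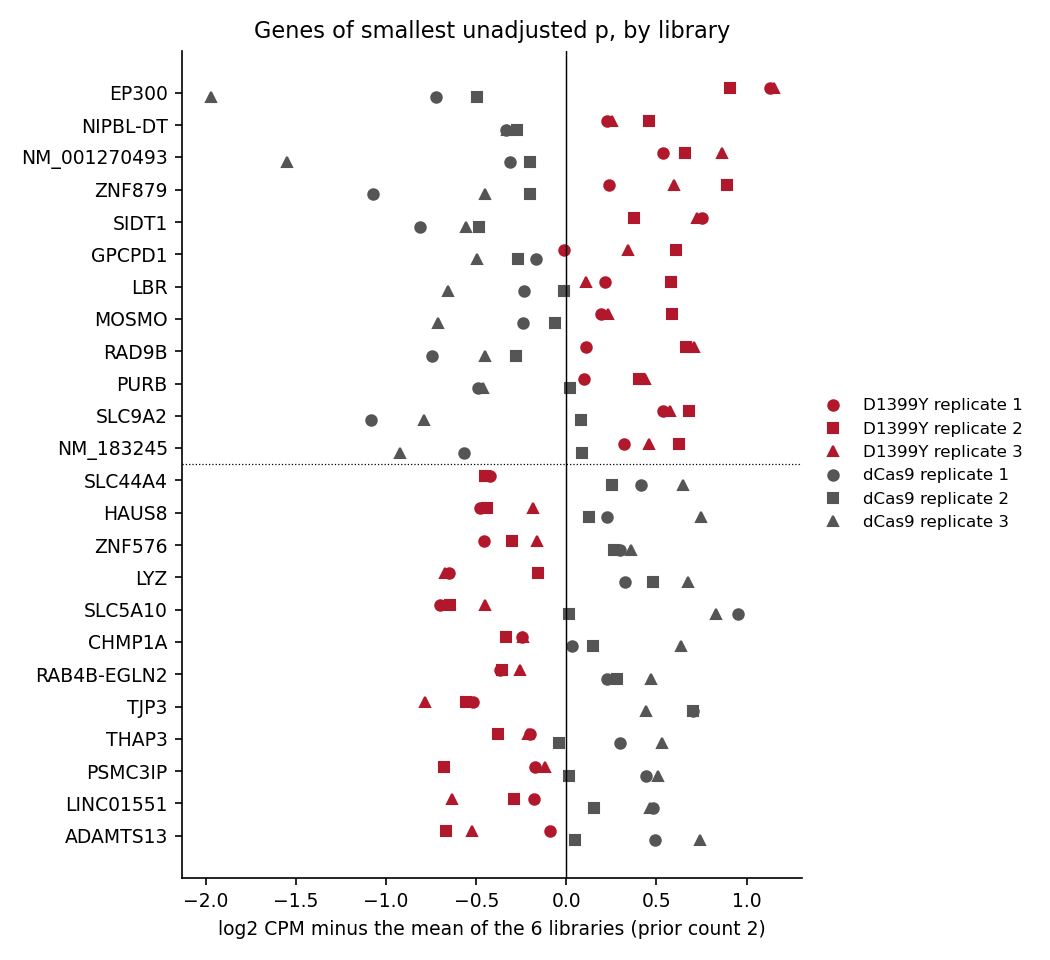
Log2 CPM of each library minus the mean of the 6 libraries, for the 12 genes of smallest unadjusted p higher with D1399Y (above the dotted line) and the 12 lower, D1399Y in red and dCas9 in grey. The groups do not overlap in any of the 24 genes, and dCas9 replicate 3 (grey triangle) lies lowest for EP300, at 51.9 CPM.

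Without dCas9 replicate 3, NIPBL-DT, ZNF879, TJP3, ZNF576 and transcript NM_001270493 (1.00) again ranked among the 6 genes of smallest p in their direction after EP300. The 7 genes described next joined them, and all 12 had an edgeR adjusted p of 1.00. SFXN2, a mitochondrial sideroflexin, had 21.7, 23.7 and 25.02 CPM with D1399Y against 12.5 and 16.5 CPM in dCas9 replicates 1 and 2, and 24.8 CPM in the library left out (0.69 without it, 0.41 with it). PPP3CA, the catalytic subunit of calcineurin, gave 0.51 and the phosphatase gene PHOSPHO1 1.70. PHOSPHO1 had 11, 8 and 14 counts with D1399Y against 3 and 4 in dCas9 replicates 1 and 2, and 7 in the library left out. DCLK2, a doublecortin-like kinase, had 23.1, 23.4 and 24.5 CPM with D1399Y against 34.9 and 35.6 CPM in dCas9 replicates 1 and 2, and 22.2 CPM in the library left out (-0.57 without it, -0.40 with it). The ciliary gene CFAP58 gave -2.21, TFAP2A-AS1 -1.77 and H2AC18 -1.25. CFAP58 had 4, 2 and 2 counts with D1399Y against 15 and 12 in dCas9 replicates 1 and 2, and 1 in the library left out. TFAP2A-AS1 had 6, 2 and 3 counts with D1399Y against 14 and 13, and 2 in the library left out. With all libraries the groups overlapped in both of these genes. Reads of TFAP2A-AS1 cannot be told apart from those of TFAP2A, because no source used here says whether the counting used strand.

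Among acetyltransferases other than p300, 10 of the 16 tested had a log2 fold change above 0 and none passed the test in either direction. Their median was 0.18, against 0.00 for all genes. It was 0.01 both without dCas9 replicate 3 (9 above 0, against 50.7% of all genes) and with the offsets (10 above 0, against 47.5% of all genes). The genes of this list, whose longest annotated transcripts had a median of 7564 bases, lay 0.76 below the mean of all libraries in dCas9 replicate 3 on the log2 scale. KAT5, the catalytic subunit of the TIP60 complex, had 87.9, 65.6 and 87.6 CPM with D1399Y against 99.2, 92.5 and 124 CPM with dCas9 (-0.38 ± 0.16), KAT8, which acetylates lysine 16 of histone H4, gave -0.36 ± 0.18 and KAT2B, also called PCAF, 0.48 ± 0.27 (0.18 without dCas9 replicate 3). Of 22 deacetylases and corepressors, 8 were above 0 and none passed, and the median was -0.10 (-0.03 without dCas9 replicate 3, -0.09 with the offsets). HDAC9 had 4.89, 8.09 and 5.59 CPM with D1399Y against 2.27, 4.30 and 0.741 CPM with dCas9 (1.23 ± 0.47, and 0.88 without dCas9 replicate 3). HDAC5 gave -0.39 ± 0.16, and the sirtuins SIRT1 and SIRT6 gave 0.45 ± 0.22 and -0.47 ± 0.21, with 0.20 and -0.21 when dCas9 replicate 3 was left out.

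Among readers of acetylated lysine and partners of p300, too, no gene passed the test. Of 23 bromodomain genes tested, 12 were above 0, and their median was 0.06. It was -0.01 with 9 above 0 when dCas9 replicate 3 was left out, and -0.11 with 5 above 0 under the offsets, so its sign depends on both choices. TRIM33 gave 0.44 ± 0.21 (0.24 without dCas9 replicate 3, 0.03 with the offsets) and BRD2 -0.20 ± 0.14. Of 24 transcription factors known to recruit p300 or CREBBP, 12 were above 0 and the median was 0.01 (-0.03 without dCas9 replicate 3, 0.00 with the offsets). CREB1 had 83.9, 157 and 95.8 CPM with D1399Y against 68.0, 105 and 39.6 CPM with dCas9 (0.65 ± 0.31), with 0.37 when dCas9 replicate 3 was left out and 0.26 under the offsets. Its related factor ATF1 had 48.0, 50.01 and 49.2 CPM with D1399Y against 40.0, 40.2 and 38.2 CPM with dCas9 (0.31 ± 0.14), a small difference with little spread in either group. IRF3, the interferon regulatory factor, gave -0.58 ± 0.22, and -0.22 without dCas9 replicate 3.

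Genes that act downstream of p300 partners gave 10 of 27 immediate early and CREB targets above 0 (median -0.09), 13 of 24 p53 targets (median 0.02, mean -0.11) and 6 of 33 hypoxia targets and glycolysis enzymes (median -0.17), with none past the threshold. Leaving out dCas9 replicate 3 gave medians of -0.10, 0.01 and -0.23 for these lists, and the offsets gave -0.04, -0.06 and -0.14. JUNB, an AP-1 subunit, gave -0.50 ± 0.23 (-0.23 without dCas9 replicate 3), IER3 -0.74 ± 0.36 and the clock gene PER1 -0.35 ± 0.21. The p53 targets BBC3 (PUMA), DDB2 and CDKN1A (p21) gave -0.59 ± 0.22 (-0.28 without dCas9 replicate 3), -0.37 ± 0.16 and -0.45 ± 0.21, and RRM2B, a ribonucleotide reductase subunit, 0.47 ± 0.21. In HEK293T cells p53 is bound by the SV40 large T antigen. The glycolytic gene PKM, pyruvate kinase, had 862, 609 and 807 CPM with D1399Y against 1109, 787 and 1082 CPM with dCas9 (-0.39 ± 0.17). In PKM replicate 2 was the lowest library of each group. TPI1 gave -0.43 ± 0.17 and ALDOA -0.34 ± 0.17, while LOX, a hypoxia-induced lysyl oxidase, gave 0.42 ± 0.22. The hypoxia and glycolysis list lay 0.39 above the mean of all libraries in dCas9 replicate 1, and its median was -0.01 without that library. It was -0.30 without dCas9 replicate 2, so its size depends on single control libraries. Against the same dCas9 libraries this median was -0.13 with the active core and -0.21 with VP64.

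Interferon and interleukin 1 genes held no member past the threshold either. Of 26 interferon-stimulated genes tested, 12 were above 0 (median -0.05, -0.0016 without dCas9 replicate 3, 0.02 with the offsets), and 10 of the 36 had too few counts to be tested. ISG15, a ubiquitin-like modifier, had 2.17, 1.73 and 3.99 CPM with D1399Y against 3.68, 4.78 and 8.89 CPM with dCas9 (-1.07 ± 0.43, and -0.67 without dCas9 replicate 3). PARP9 gave 0.61 ± 0.24, OAS3 0.67 ± 0.35 (0.35 without dCas9 replicate 3) and IFI44L 0.95 ± 0.49, the last with 5.70 CPM in D1399Y replicate 1 and 1.42 to 2.22 CPM in the other 5 libraries. Of 16 tested genes of interleukin 1 signalling 11 were above 0 (median 0.11, 0.00 without dCas9 replicate 3, 0.02 with the offsets), among them the adaptor TAB3 at 0.45 ± 0.23 (0.09 with the offsets), while the kinase subunits IKBKB and IKBKG gave -0.26 ± 0.13 and -0.52 ± 0.25 (-0.19 for IKBKG without dCas9 replicate 3). Of 15 NF-kB targets 6 were above 0 (median -0.14, and -0.17 with the offsets). That median was -0.03 when D1399Y replicate 1 was left out, -0.28 when dCas9 replicate 1 was and -0.16 when dCas9 replicate 3 was. These targets include NFKB2 at -0.38 ± 0.17 and the inhibitor NFKBIE at -0.53 ± 0.24.

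Stress and growth programmes showed no member past the threshold. Of 28 heat shock genes 4 were above 0 (median -0.13, -0.08 without dCas9 replicate 3, -0.12 with the offsets), with the HSP90 cochaperone AHSA1 at 48.6, 39.0 and 47.1 CPM with D1399Y and 63.5, 49.5 and 72.6 CPM with dCas9 (-0.45 ± 0.16), and HSF1 at -0.40 ± 0.19 (-0.13 without dCas9 replicate 3). The heat shock median against dCas9 was also -0.18 with the active core and -0.14 with VP64. Of 31 genes of the unfolded protein and integrated stress response 10 were above 0 (median -0.08, 0.04 without dCas9 replicate 3, -0.03 with the offsets). PPP1R15A (GADD34), which directs dephosphorylation of eIF2alpha, gave -0.54 ± 0.19, SDF2L1 -0.77 ± 0.32 (-0.37 without dCas9 replicate 3) and the cystine transporter SLC7A11 0.71 ± 0.30 (0.25 with the offsets). Sterol and fatty acid synthesis genes were above 0 in 15 of 31 (median -0.03, -0.06 without dCas9 replicate 3, -0.03 with the offsets). MVD gave -0.68 ± 0.29 and FDPS -0.40 ± 0.17, against -0.28 and -0.17 when dCas9 replicate 3 was left out. DNA replication genes were above 0 in 17 of 36 and mitotic genes in 17 of 35 (median -0.01 for each list). When dCas9 replicate 3 was left out, the replication list had 22 of 36 above 0 (median 0.02) and the mitosis list 11 of 35 (median -0.10). Under the offsets the replication list had 19 above 0 (median 0.00) and the mitosis list 5 (median -0.06). RFC4, a clamp loader subunit, gave -0.37 ± 0.16, cyclin E2 (CCNE2) 0.53 ± 0.23 and GINS3 -0.25 ± 0.11. The mitotic genes ECT2, PTTG1 (securin) and NDC80 gave 0.38 ± 0.17, -0.38 ± 0.19 and -0.25 ± 0.13.

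Among lists with at least 10 tested members, those with the smallest share above 0 were cytosolic ribosomal proteins, the respiratory chain and histone genes. Their median lengths of 1857, 1432.5 and 1641 bases were also the shortest of these lists, against 3664 bases for all genes. These lengths are of the longest annotated transcript of each gene, and the RNA counted can be shorter. All 77 cytosolic ribosomal protein genes had a log2 fold change below 0, between -0.37 and -0.02 (median -0.18), none past the threshold and none with groups that did not overlap. RPS24 had 471, 403 and 455 CPM with D1399Y against 531, 426 and 677 CPM with dCas9 (-0.30 ± 0.17), with dCas9 replicate 3 well above the other 5 libraries. RPS9 gave -0.31 ± 0.18 (-0.07 without dCas9 replicate 3) and RPL17 -0.28 ± 0.17 (-0.13). Without dCas9 replicate 3 the median of this list was -0.02 with 28 of 77 above 0, and with the offsets it was -0.08 with 25 above 0. Processed pseudogenes of these genes can share their reads, so single values are uncertain. Of 70 nuclear-encoded respiratory chain genes 4 were above 0 (median -0.28). The median was -0.07 when dCas9 replicate 3 was left out and -0.01 when D1399Y replicate 2 was left out as well, and it was -0.16 with the offsets. The complex I subunit NDUFA13 had 45.1, 25.7 and 36.7 CPM with D1399Y against 47.6, 41.1 and 74.8 CPM with dCas9 (-0.59 ± 0.25, and -0.18 with the offsets), NDUFS6 gave -0.59 ± 0.27 and COX7A2 of complex IV -0.32 ± 0.14. Both lists stood above the mean of all libraries in dCas9 replicate 3, by 0.47 for ribosomal proteins and 0.51 for the respiratory chain on the log2 scale. Compared with the same dCas9 libraries, the ribosomal median was -0.29 with the active core and -0.23 with VP64. That of the respiratory chain was -0.24 with the core and -0.20 with VP64, so neither shift was particular to D1399Y.

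Histone genes, which encode the core of the nucleosome, had the lowest median of the lists with at least 3 tested members. Of 25, 16 were tested, 1 was above 0, none passed, and the median was -0.35 with all libraries, -0.37 without dCas9 replicate 3, -0.25 without dCas9 replicate 1 and -0.15 with the offsets. H2AC20 had 1.36, 2.89 and 0.799 CPM with D1399Y against 5.38, 3.59 and 3.70 CPM with dCas9 (-1.33 ± 0.46), and H2AC18 had 6.79, 5.78 and 5.32 CPM with D1399Y against 17.0, 11.7 and 7.04 CPM with dCas9 (-1.01 ± 0.39). The groups did not overlap in either gene, and 4 of the 16 tested were separated in this way with D1399Y lower, against 3.82% of all genes. H4C3 gave -1.22 ± 0.50, from 4, 8 and 5 counts with D1399Y and 14, 20 and 5 with dCas9, and H4C14 gave -0.70 ± 0.39. In dCas9 replicate 1 these genes stood 0.44 above the mean of all libraries. Compared with the same dCas9 libraries, the histone median was -0.28 with the active core and -0.25 with VP64. A lower histone median than with dCas9 was thus not particular to D1399Y. Histone genes have near-identical copies and most of their transcripts lack a poly(A) tail, so their counts from polyadenylated RNA are uncertain. Splicing factors were above 0 in 13 of 36 (median -0.05). When dCas9 replicate 3 was left out, 22 of 36 were (median 0.04), and under the offsets 5 of 36 were (median -0.19), so sign and size depend on these choices. SRSF1 gave 0.29 ± 0.14, U2AF2 -0.29 ± 0.16 and SNRNP70 -0.53 ± 0.27 (-0.23 without dCas9 replicate 3).

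**Figure D5:**
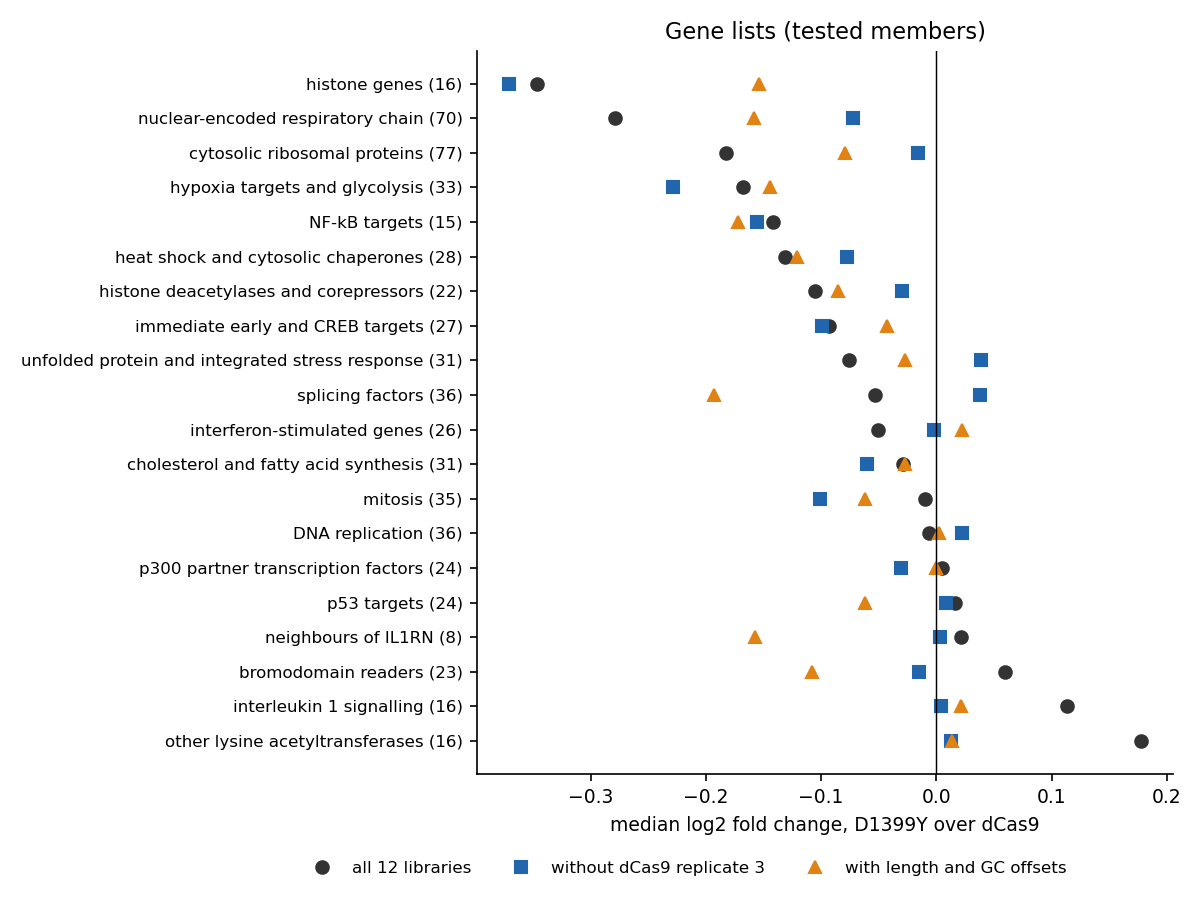
Median log2 fold change of D1399Y over dCas9 for each gene list, with the number of tested members in brackets, from all 12 libraries (black circles), without dCas9 replicate 3 (blue squares) and with length and GC offsets (orange triangles). Ribosomal proteins and the respiratory chain come close to 0 without dCas9 replicate 3, and histone genes stay at -0.37. The histone median against dCas9 was also below 0 with the active core (-0.28) and with VP64 (-0.25), which are not drawn.

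Markers of the cell line and of other cells gave little that separated the groups. Of 15 HEK293T markers tested 6 were above 0 (median -0.10, -0.07 without dCas9 replicate 3, -0.08 with the offsets) and none passed. GATA3 gave -0.57 ± 0.29, KRT8 -0.44 ± 0.24 and LIN28B 0.39 ± 0.22, with -0.22, -0.10 and 0.13 when dCas9 replicate 3 was left out. The summed level of blood markers was 11.4 to 15.7 CPM with D1399Y and 14.9 to 24.6 CPM with dCas9, with CD3E and HBB at 0 in all 6 libraries. LYZ, described above, is one of these markers. That of fibroblast markers was 30.3 to 36.4 CPM with D1399Y and 25.9 to 40.7 CPM with dCas9, with COL1A2 and THY1 at 0, and COL6A3 gave 1.06 ± 0.71. Keratinocyte markers summed to 13.7 to 15.1 CPM with D1399Y and 14.4 to 25.4 CPM with dCas9, with KRT5, KRT14, KRT6A, IVL and SPRR1B at 0 and DSG3 at -0.64 ± 0.31. Endothelial markers summed to 75.9 to 77.9 CPM with D1399Y and 46.3 to 84.4 CPM with dCas9, and hepatocyte markers to 1.35 to 3.21 CPM with D1399Y and 1.66 to 5.32 CPM with dCas9, with APOB, TTR and SERPINA1 at 0. KDR, the VEGF receptor, had 2.17, 0.578 and 1.6 CPM with D1399Y and 0.850, 1.67 and 0.741 CPM with dCas9 (0.35 ± 0.57).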

How the data were processed

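Polyadenylated RNA was sequenced from 12 libraries, of which 6 enter the comparison. Per the labels and files, the authors deposited raw read counts in whole numbers for 40709 RefSeq transcripts. The submitters' processing notes name DESeq2 1.6.2, R 3.1.2, Bowtie2, CASAVA and SAMtools, with hg19. How reads common to several isoforms, strand and duplicate reads were treated is not stated in any source used here. ACTB took 0.0180% to 0.0319% of counts, and whether reads of abundant transcripts were limited, which could narrow fold changes, is not stated.

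Transcripts were named through RefSeq (39320) and GENCODE v29 (521) tables of GRCh38, and 868 with 1.07% of the reads kept their identifier. Counts were summed per gene. Differences were tested two-sided with edgeR 4.0.16 in R 4.3.3 (TMM, filterByExpr with a minimum count of 10 and minimum total of 15, quasi-likelihood) in 1 fit of 4 group means over 12 libraries, adjusted by Benjamini-Hochberg over 14613 genes at 0.05. All libraries share 1 estimate of spread. CPM of single genes are scaled by TMM, log2 CPM used a prior count of 2, and intervals are unadjusted at 95%. Summed marker levels are CPM of the total count of each library, without TMM scaling. The fit was also run on simulated data. Those held no outlying library and no trend with GC content or length, so they do not show how the fit handles these.

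Same-numbered libraries deviated together (correlations 0.24, 0.49 and 0.50 for numbers 1 to 3), so the replicate block was taken as a pairing, from the data alone. D1399Y replicate 2 and dCas9 replicate 1 also correlated at 0.14, and the remaining pairs were negative. Such correlations cannot tell a pairing from deviations of single libraries that happen to be alike. The labels name pool CV41 for all but replicate 3 of both p300 groups (CV42), and no dCas9 library is in CV42. Alternatives were RLE and upper-quartile factors, no filter, another filter (1 CPM in 6 libraries), DESeq2 1.42.0, limma-voom (limma 3.58.1), a robust fit, the block, the pool, subsets of libraries, and each library left out. Offsets for length and GC content, the block with them, and the fit without D1399Y replicate 2 and dCas9 replicate 3 were added after seeing the data. The members and the 27 gene lists were chosen with earlier results of these data known. Named are IL1RN, EP300, tested IL1RN neighbours, the 12 genes of smallest p each way, 6 each way without dCas9 replicate 3, and up to 4 of each list by p, from which some members were left out for length. BRD1 was not analysed here. Figures used Python 3.11.15, pandas 2.3.3 and matplotlib 3.10.9.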

Additional observations from a re-analysis of the deposited data

How the results depend on the processing

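EP300 passed the threshold, as the 1 gene called higher, under 9 alternatives that left out no single library, and 0 genes were called lower under any run. Its log2 fold change there was 2.0 with RLE factors, 1.95 with upper-quartile factors, 2.0 with no filter, 1.995 with the filter of 1 CPM in 6 libraries, which keeps more genes, 2.01 in DESeq2, 2.10 in limma-voom, 1.86 with length and GC offsets and 1.86 with the replicate block and those offsets, and 1.74 without D1399Y replicate 2 and dCas9 replicate 3. It did not pass in the robust fit, with the pool, in the compared groups alone or in CV41 alone (1.96, edgeR adjusted p 0.612), nor with the replicate block alone (2.03, edgeR adjusted p 0.189), and the block changed no call. Leaving out 1 library gave 1.67 to 2.28 and 0 to 1 genes higher, the 1 being EP300 without dCas9 replicate 2 or 3. The IL1RN value ran from -0.019 without dCas9 replicate 1 to 0.51 without D1399Y replicate 2 and dCas9 replicate 3.

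Against VP64, IL1RN passed with no filter (-1.66), in DESeq2 (-1.66), with the replicate block and offsets (-1.61) and without dCas9 replicate 3, in a range of -1.81 to -1.55 over left-out libraries. EP300 against VP64 passed with upper-quartile factors (1.69), no filter (1.71), DESeq2 (1.72), offsets (1.63), block with offsets (1.64), without both libraries (1.78) and without dCas9 replicate 3, in a range of 1.67 to 1.78. Fits of the compared groups alone were not run for these contrasts. Non-overlapping genes numbered 1367 higher and 1450 lower in CV41 alone, 1752 and 1762 without both libraries, and 714 to 2248 and 817 to 2387 with 1 library left out, since fewer libraries overlap less by construction. Changes of tool or covariate do not apply to that count. It was also made with RLE and upper-quartile factors, the other filters and the offsets, and those values are not printed here.

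Of 102 further genes named above, 8 changed sign under some alternative, in 18 of 2033 values, and the cause was not tested. TTL was -0.28 with offsets and -0.26 with block and offsets, and PSD4 was 0.18 in limma-voom. The other reversals came from leaving out libraries, 1 at a time or D1399Y replicate 2 and dCas9 replicate 3 together. POLR1B then ran from -0.056 to 0.38, CKAP2L from -0.019 to 0.45, SLC20A1 from -0.092 to 0.022, RABL2A from -0.33 to 0.39, PSD4 from -0.54 to 0.48, POU5F1 from -0.46 to 0.11 and KDR from -0.045 to 0.84. Of the 20 list medians other than markers and the other targets of the study, 11 changed sign when some single library was left out, and 9 kept it, among them histone genes (-0.50 to -0.23), the respiratory chain (-0.42 to -0.07), ribosomal proteins (-0.31 to -0.016), hypoxia targets (-0.30 to -0.013), NF-kB targets (-0.28 to -0.035) and heat shock genes (-0.23 to -0.08). No test was made on a list median.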
